A study of Mus musculus with 6 samples.

Results

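Most mouse genes can make several transcripts, and a gene can switch between them without a change in its total level. Described here are 29 genes in which control and Dpy30 knockout islets differed in which transcript the gene's RNA was assigned to. They were chosen by their values in these libraries. From 7698 protein-coding genes with at least 5 TPM (a transcript level scaled by length and library total) in all 6 libraries, Dpy30 itself left out, a gene was kept under 2 conditions. The share of 1 of its transcripts in the gene's TPM had to lie apart in the 2 groups without overlap, and the group means had to differ by 25 percentage points or more. The 29 genes are 0.377% of the genes considered, fewer than the 150 the rule allowed.

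The series has 6 libraries of polyadenylated RNA, each from the pancreatic islets of 1 male mouse of strain C57BL/6 at postnatal day 24. There are 3 control and 3 Dpy30 knockout mice, whose RNA came from 100 to 200 islets picked by hand. Dpy30 is a core subunit of the enzymes that put methyl groups on lysine 4 of histone H3 (H3K4). By its title the study is about the need for this mark in the functional maturation of endocrine cells. A Cre driver, the deleted exons and the alleles of the controls are not in the labels, which also give no litters.

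The libraries held 17131515 to 25354384 estimated reads. The Dpy30 transcript Dpy30-205, which lacks 222 exonic bases that Dpy30-206 has, took 8.05, 0 and 5.83% of Dpy30 TPM in the controls and 84.3, 85.2 and 84.5% in the knockouts. Knockout replicate 2 stood apart from the other libraries. The Gm42418 RNA took 14.7% of its reads against 0.0986 to 0.235% elsewhere. In that library gene levels ran against transcript length at a Spearman correlation of -0.513. Knockout replicates 1 and 3 had 0.0204 and 0.0336, and the controls had 0.293, 0.234 and 0.169, so this correlation did not overlap between the groups. The part of this difference in the shares below was not tested. Islet markers were high, as the label has it, with summed beta cell marker levels of 160000 to 265000 CPM (reads scaled to library size) in controls and 71700 to 122000 in knockouts. Alpha cell markers summed to 37200 to 66300 CPM in controls and 24600 to 29600 in knockouts. Delta cell markers summed to 3160 to 3490 and 1470 to 1890, and PP cell markers to 4150 to 7130 and 1060 to 1900. Acinar markers summed to 1120 to 3830 CPM in controls and 2600 to 16200 in knockouts, endothelial markers to 642 to 802 and 901 to 1120, and mesenchymal markers to 380 to 670 and 597 to 1150. The acinar marker Ptf1a and the ductal marker Cftr were too low to be fitted. The part of these cell types in the shares below was not tested. In whole islets, fewer cells of a type and less RNA per cell cannot be told apart.

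RNA polymerase II can start a gene at more than one promoter, and the spliceosome can join its exons in more than one way. The first choice sets the 5′ end and at times the start of the protein. The second adds, drops or exchanges internal exons. H3K4 trimethylation lies over the starts of active genes, where it is read by proteins with a PHD finger such as those of the ING family and TFIID. CpG-rich starts are the ones that usually carry it.

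Sequences are shown first for genes in which the exchanged part is a coding exon, or in which the start differs. In Cept1, on the minus strand of chromosome 3 in GRCm38, the gaining and the losing transcript use different versions of the fifth exon. The exon of Cept1-203, at chr3:106512803-106512887, and that of Cept1-201, at chr3:106520009-106520093, are both 85 bases of coding sequence, and 47 of those bases are identical position by position (55.3%). They read 5′ to 3′ as follows.
Cept1-203: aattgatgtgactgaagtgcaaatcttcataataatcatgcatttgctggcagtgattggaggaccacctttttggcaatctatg
Cept1-201: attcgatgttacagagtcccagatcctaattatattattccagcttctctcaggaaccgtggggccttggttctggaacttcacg

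In Nnat, on the plus strand of chromosome 2, the losing transcript Nnat-202 has a second exon of 81 bases at chr2:157561213-157561293. The gaining transcript Nnat-205 skips it. The exon is coding throughout and holds 27 whole codons, so that the proteins have 81 and 54 residues.
Nnat-202 exon: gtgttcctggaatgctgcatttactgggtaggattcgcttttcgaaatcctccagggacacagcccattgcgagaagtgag

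Promoter windows, from RefSeq on GRCm38.p6, span 250 bases before and 50 bases after an annotated start. Those of Adgrg1, Hspb6 and Ing1 are shown because the results for these genes turn on the start used. CpG pairs are in capitals. The first pair is that of Adgrg1, at chr8:94984149-94984448 for the gaining start and chr8:94976859-94977158 for the losing start, both on the plus strand.
Adgrg1-201: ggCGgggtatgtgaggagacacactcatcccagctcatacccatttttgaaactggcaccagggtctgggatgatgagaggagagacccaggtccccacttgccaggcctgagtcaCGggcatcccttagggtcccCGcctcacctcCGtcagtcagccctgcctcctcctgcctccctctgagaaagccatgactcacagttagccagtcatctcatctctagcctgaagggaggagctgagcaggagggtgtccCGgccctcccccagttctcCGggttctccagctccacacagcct
Adgrg1-202: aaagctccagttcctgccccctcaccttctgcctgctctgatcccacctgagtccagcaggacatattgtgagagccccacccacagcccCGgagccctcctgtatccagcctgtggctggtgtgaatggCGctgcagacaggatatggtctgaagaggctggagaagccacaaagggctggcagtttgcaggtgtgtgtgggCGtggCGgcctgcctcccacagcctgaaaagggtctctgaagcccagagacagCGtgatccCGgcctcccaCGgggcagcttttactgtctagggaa

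The second pair is that of Hspb6, plus strand, at chr7:30553051-30553350 (gaining) and chr7:30552290-30552589 (losing).
Hspb6-201: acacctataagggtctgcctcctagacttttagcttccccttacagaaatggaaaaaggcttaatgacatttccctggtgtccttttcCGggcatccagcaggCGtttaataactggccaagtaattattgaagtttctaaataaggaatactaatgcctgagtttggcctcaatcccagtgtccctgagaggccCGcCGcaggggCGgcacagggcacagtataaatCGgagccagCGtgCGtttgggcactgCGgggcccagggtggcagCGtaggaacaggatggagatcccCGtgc
Hspb6-202: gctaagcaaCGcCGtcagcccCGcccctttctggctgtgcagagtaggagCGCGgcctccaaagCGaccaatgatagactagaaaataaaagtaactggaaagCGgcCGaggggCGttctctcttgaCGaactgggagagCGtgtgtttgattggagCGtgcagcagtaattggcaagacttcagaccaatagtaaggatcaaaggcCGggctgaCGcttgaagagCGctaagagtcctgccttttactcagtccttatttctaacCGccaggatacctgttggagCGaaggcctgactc

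The third pair is that of Ing1, plus strand, at chr8:11555813-11556112 (gaining) and chr8:11558160-11558459 (losing).
Ing1-206: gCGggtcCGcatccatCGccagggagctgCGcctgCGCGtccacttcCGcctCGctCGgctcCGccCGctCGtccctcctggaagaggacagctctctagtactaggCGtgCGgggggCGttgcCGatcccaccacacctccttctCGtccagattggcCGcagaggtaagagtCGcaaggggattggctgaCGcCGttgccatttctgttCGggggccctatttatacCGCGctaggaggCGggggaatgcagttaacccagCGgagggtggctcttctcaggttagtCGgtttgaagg
Ing1-202: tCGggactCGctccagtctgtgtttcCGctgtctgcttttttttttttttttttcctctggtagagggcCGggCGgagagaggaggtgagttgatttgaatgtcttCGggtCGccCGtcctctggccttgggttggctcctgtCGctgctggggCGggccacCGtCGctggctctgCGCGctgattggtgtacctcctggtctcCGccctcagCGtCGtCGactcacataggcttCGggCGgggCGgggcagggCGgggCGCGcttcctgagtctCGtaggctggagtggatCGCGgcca

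The observed over expected CpG ratio was 0.22 at the gaining and 0.25 at the losing start of Adgrg1, 0.89 and 0.92 in Ing1, and 0.53 and 0.80 in Hspb6. Of all 32851 RefSeq windows the median was 0.38. The letters TATAAA, searched on both strands, are in the gaining windows of Hspb6 and Ing1 and not in their losing windows. Over all windows 13.6% hold TATAAA, 37.4% hold CCAAT and 35.7% hold GGGCGG.

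In 18 of the 29 genes the transcript that met the rule had the higher mean share in the knockout, and in 11 the lower. Leaving out each library in turn, 12 of the 29 met the rule every time by any of their transcripts, and 23 met it without knockout replicate 2. Ctsh, Dsg2, Uhmk1, Ccnd3, Pard6a and Apoa2 met it in 5 of the 6 leave-outs. Emid1, Rhbdl2, Fbxl15, Kdm2b, Hdac7, Rnaseh2c and Fam214b met it in 4, Prpsap2, 9530068E07Rik and Ing1 in 3, and Cdca3 in 2. The differences ran from 25.3 to 50.8 percentage points, with a median of 29.2. Because these values chose the genes, they are given as a description and carry no test. The SD of the chosen transcripts' shares within groups had a median of 7.07 points in controls and 8.42 in knockouts, against 3.52 and 4.36 for the 15575 transcripts of the genes considered that held 10% or more. The genes lie on 16 chromosomes. Their lowest library had a median of 292 estimated reads, and single gene totals ran from 66 to 6174. Just outside the limit were Nde1-201 with a difference of 24.96 points, Snx8-205 with 24.6 and Ypel3-202 with -24.09.

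**Figure D1:**
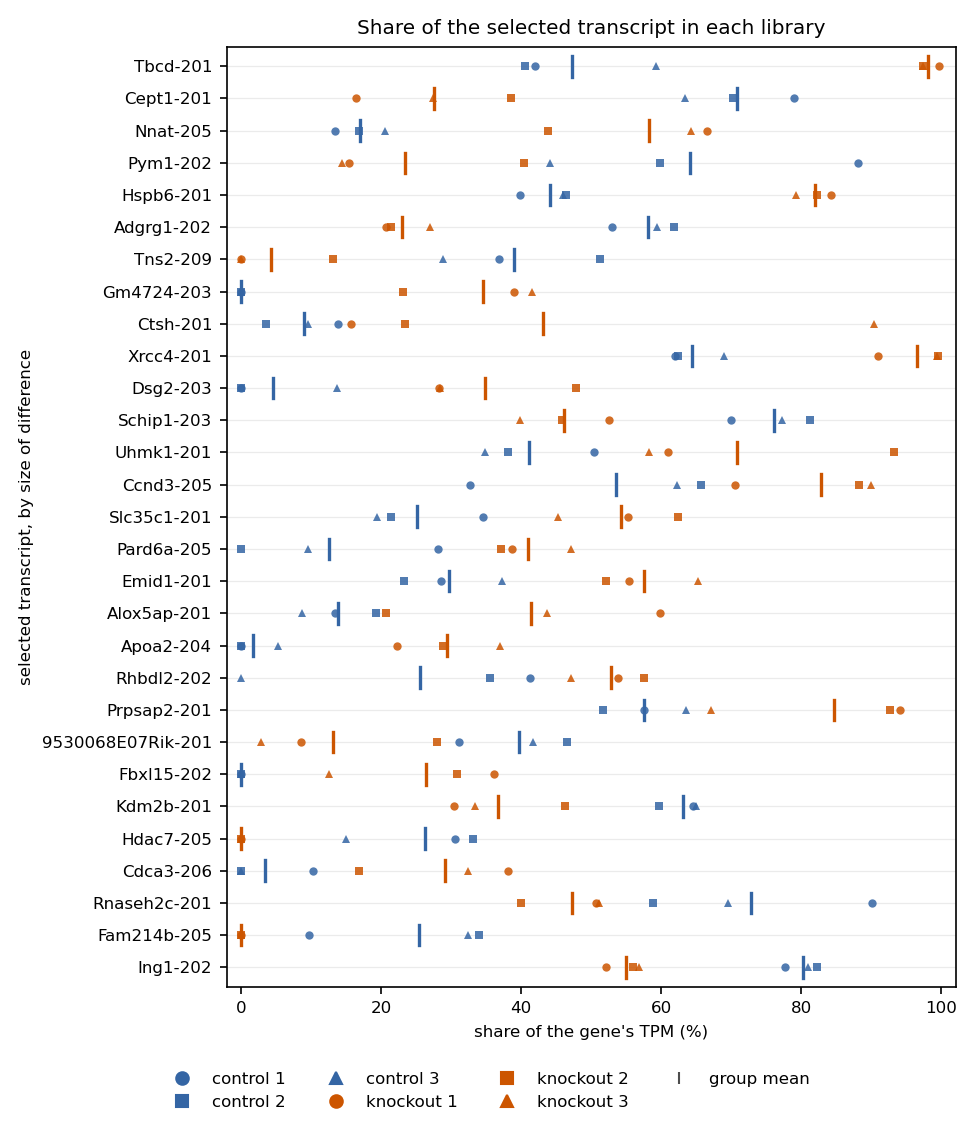
Share of the gene's TPM (percent, x axis) held by the transcript that met the rule, for the 29 genes ordered by the size of the difference (y axis). Points are the libraries, coloured by group and shaped by replicate number, and ticks are group means; Tbcd-201 at the top differs by 50.8 points and Ing1-202 at the bottom by 25.3.

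Tbcd, first in order, encodes a cofactor that folds tubulin. Its full-length coding transcript Tbcd-201 held 42.0, 40.5 and 59.3% of the TPM in controls and 99.6, 97.3 and 97.4% in knockouts. The groups lay 38.0 points apart at their nearest. Listed at 0 in all 3 knockout libraries were 2 non-coding processed transcripts from starts farther into the gene. Tbcd-204 held 26, 33.6 and 17.4% in controls and Tbcd-206 30.6, 24.8 and 21.4%. By estimated reads the share of Tbcd-201 differed by 19.4 points. Tbcd-201 itself had 75.9 ± 6.58 CPM (SD, n = 3) in controls and 70.1 ± 5.59 in knockouts. B3gntl1 lies on the opposite strand with up to 473 bases of exon shared with Tbcd, summed over both transcripts of the pair.

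Cept1, whose enzyme makes phosphatidylcholine and phosphatidylethanolamine, differed in the use of the 2 exons shown above. Cept1-201 held 79.0, 70.2 and 63.4% in controls and 16.5, 38.6 and 27.5% in knockouts. Cept1-203 held 9.99, 25.7 and 20.0% in controls and 50.3, 45.6 and 45.3% in knockouts. All 3 knockout libraries were on the far side of all 3 controls for both transcripts. Another transcript, the incomplete Cept1-206, ends within the exon of Cept1-201 and went the other way, at 0, 0 and 10.7% in controls and 24.5, 15.3 and 15.7% in knockouts. Summed over both transcripts that hold bases of that exon, the share was 79.0, 70.2 and 74.1% in controls and 41.0, 53.9 and 43.2% in knockouts, a difference of -28.4 points. Over the 3 transcripts with the other exon it was 16.6, 29.8 and 25.9%, then 54.4, 46.1 and 49.3%, a difference of 25.8 points. The level of Cept1-201 was 13.5 ± 0.653 CPM in controls and 7.83 ± 2.21 in knockouts, and that of Cept1-203 3.81 ± 1.71 and 14.7 ± 2.74 (SD, n = 3). The 2 transcripts also start 149 bases apart, and both encode 416 residues.

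Nnat encodes neuronatin, a small membrane protein of the endoplasmic reticulum, and is expressed from the paternal allele in mice. Nnat-205, which skips the 81-base exon, held 13.4, 16.9 and 20.6% in controls and 66.6, 43.9 and 64.2% in knockouts. Nnat-202, which has the exon, held 70.8, 67.9 and 64.4% and then 29.7, 43.1 and 33.9%. Both transcripts were lower in the knockouts: Nnat-202 had 89.2 ± 28.3 CPM in controls and 4.51 ± 2.78 in knockouts, and Nnat-205 20.6 ± 6.47 and 6.16 ± 1.18. The share of Nnat-205 was thus higher while its level was lower.

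Several genes differed in the start used. Pym1 encodes a factor that takes exon junction complexes off translated mRNA. Its upstream start (Pym1-202) held 88.1, 59.9 and 44.2% in controls and 15.5, 40.4 and 14.5% in knockouts, so that control replicate 3 and knockout replicate 2 lay only 3.84 points apart. Pym1-201, which starts 566 bases downstream, held 2.93, 34.6 and 37.7% and then 71.0, 41.9 and 68.8%. The proteins are 203 and 202 residues long. Pym1 had 170 to 254 estimated reads per library.

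Hspb6, a small heat shock protein of muscle and other tissues, had less of a non-coding transcript and more of the coding one. The processed transcript Hspb6-202 held 50.7, 49.2 and 49.4% in controls and 13.2, 16.2 and 16.5% in knockouts. Hspb6-201, which encodes 162 residues and starts 744 bases downstream, held 39.8, 46.4 and 46.0% in controls and 84.3, 82.3 and 79.2% in knockouts. The nearest libraries of the 2 groups were 32.8 points apart. Hspb6-201 had 7.6 ± 1.38 CPM in controls and 21.3 ± 7.70 in knockouts, and Hspb6-202 had 8.09 ± 0.912 and 3.66 ± 0.898.

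Adgrg1 encodes GPR56, an adhesion receptor abundant in islets, and had 2569 to 6174 reads per library. Adgrg1-202 and Adgrg1-201 start 7264 bases apart and encode the same 687 residues. Adgrg1-202 held 53.0, 61.8 and 59.4% in controls and 20.8, 21.4 and 27% in knockouts. Adgrg1-201 held 16.8, 8.42 and 12.4% and then 47.6, 35.4 and 49.7%. The level of Adgrg1-202 was 177 ± 14.4 CPM in controls and 65.6 ± 15.3 in knockouts, a log2 fold change of -1.43 with an SE of 0.20. Adgrg1-201 had 37.9 ± 13.4 and 125 ± 34.1 CPM, a log2 fold change of 1.72 with an SE of 0.33. The gene as a whole had 229 ± 10.7 and 203 ± 36.7 CPM.

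**Figure D2:**
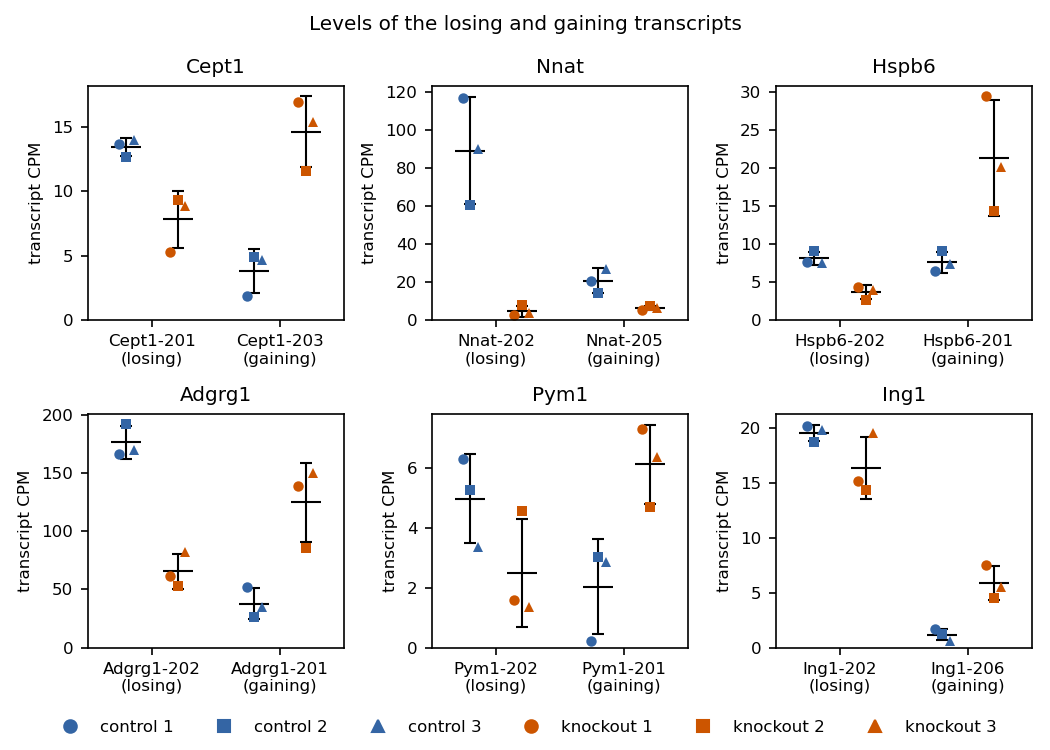
Levels in CPM (y axes, each from 0) of the losing and the gaining transcript of Cept1, Nnat, Hspb6, Adgrg1, Pym1 and Ing1. Points are the 6 libraries by group and replicate, with the mean and SD of each group in black. In Cept1, Hspb6 and Adgrg1 the losing transcript was lower and the gaining one higher without overlap, and in Nnat both were lower.

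Tns2 encodes a tensin that links integrins to actin. Tns2-209 held 36.8, 51.3 and 28.9% in controls and was listed at 0 in knockout replicates 1 and 3, with 13.1% in knockout replicate 2. Xrcc4, a partner of DNA ligase IV in joining broken ends, had its full-length transcript Xrcc4-201 at 61.9, 62.4 and 68.9% in controls and 90.9, 99.5 and 99.3% in knockouts. The transcript that lost is an incomplete fragment with 13 to 19 reads in controls and 0 to 4 in knockouts, and by estimated reads the difference was 6.91 points. Ctsh, cathepsin H of the lysosome, turned on knockout replicate 3. Ctsh-201 held 13.9, 3.57 and 9.63% in controls and 15.8, 23.5 and 90.3% in knockouts, and without that library the difference was 10.6 points.

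Dsg2, a desmosomal cadherin, had the short Dsg2-203 at 0, 0 and 13.8% in controls and at 28.3, 47.8 and 28.5% in knockouts. The full-length Dsg2-201 had 52.1 ± 6.02 CPM in controls and 47.7 ± 12.8 in knockouts. By reads the difference was 6.48 points, and without knockout replicate 2 the TPM difference was 23.8, below the limit. Schip1, a cytoskeletal partner of schwannomin, had Schip1-203 at 70.0, 81.2 and 77.3% in controls and 52.6, 45.8 and 39.9% in knockouts. The transcript with the higher share, Schip1-206, starts 78037 bases upstream and encodes 456 residues in place of 244. An exon of the read-through gene Iqschfp overlaps Schip1 on the same strand (1315 bases, summed over both transcripts of the pair). Reads of the 2 genes cannot be told apart there. Uhmk1 encodes a kinase that phosphorylates splicing factor 1. Its transcript Uhmk1-201 held 50.4, 38.2 and 34.9% in controls and 61.0, 93.2 and 58.2% in knockouts. Without knockout replicate 2 the Uhmk1 difference was 18.4 points.

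Ing1 encodes a PHD finger protein that binds trimethylated H3K4. It was the 1 switched gene among 27 listed genes of TFIID and of H3K4me3 readers, where 0.377% of all genes considered were switched. Nothing is read from this count. Ing1-202 held 77.6, 82.3 and 81.0% in controls and 52.1, 56.0 and 56.9% in knockouts, groups 20.7 points apart at their nearest. Ing1-206, which starts 2366 bases upstream and encodes the same 185 residues, held 6.94, 5.64 and 2.61% and then 27.5, 18.7 and 17.0%. Its level was 1.17 ± 0.530 CPM in controls and 5.85 ± 1.53 in knockouts. Ing1-202 had 19.6 ± 0.756 and 16.3 ± 2.79 CPM. The Ing1 difference fell below the limit in 3 of 6 leave-outs, at -23.8 to -24.9 points, and was -23.8 points by estimated reads.

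The remaining genes of the naming rule were coding against non-coding pairs and those nearest to the limit. Emid1, an extracellular matrix protein, had the coding Emid1-201 at 28.6, 23.3 and 37.3% in controls and 55.4, 52.1 and 65.3% in knockouts. The intron-retaining Emid1-202 held 45.8, 34.0 and 36.6% and then 22.0, 34.5 and 15.6%, and its groups overlapped. Alox5ap, which hands arachidonic acid to 5-lipoxygenase, had the coding Alox5ap-201 at 13.5, 19.3 and 8.76% in controls and 59.9, 20.7 and 43.7% in knockouts, with groups 1.43 points apart and 70 to 139 reads. Without knockout replicate 1 the Alox5ap-201 difference was 18.4 points, and the gene met the rule there by another transcript. In Rnaseh2c, a subunit of ribonuclease H2, the coding Rnaseh2c-201 was at 90.1, 58.9 and 69.6% in controls and 50.7, 40 and 51.1% in knockouts. Without control replicate 1 the difference was -17.0 points, and by estimated reads it was -12.4. The intron-retaining Rnaseh2c-203 was listed at 0 in controls and knockout replicate 1 and held 28.8 and 19.2% in the other knockouts, on 17 and 10 reads. Fam214b-205 held 9.78, 34.0 and 32.4% in controls and was listed at 0 in all knockouts.

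The other 12 genes, which the naming rule passed over, include 2 with predicted or clone names, Gm4724 and 9530068E07Rik. Among the remaining 10, Kdm2b encodes a histone demethylase that binds CpG islands. Its short form Kdm2b-201 (776 residues) held 64.6, 59.7 and 64.9% in controls and 30.5, 46.3 and 33.5% in knockouts. The long Kdm2b-203, of 1303 residues, starts 88178 bases upstream and held 14, 13.5 and 10.2%, then 42.2, 0 and 27.6%. Another long form, Kdm2b-202 of 1309 residues, also starts upstream. It held 15.4, 17.5 and 15.6% in controls and 13.7, 34.4 and 23.6% in knockouts, and its groups overlapped. Hdac7, a class IIa histone deacetylase, had Hdac7-205 at 30.6, 33.1 and 15.0% in controls and listed at 0 in all knockouts. Ccnd3, Slc35c1, Pard6a, Apoa2, Rhbdl2, Prpsap2, Fbxl15 and Cdca3 differed by 25.7 to 29.3 points. Exons of another gene on the opposite strand overlap Kdm2b (Rnf34, up to 1235 bases), Ccnd3 (Bysl, 720), Fbxl15 (Cuedc2, 689) and Rnaseh2c (Kat5, 426), among others. These overlaps are summed over both transcripts of the pair, so bases that both hold are counted for each. The libraries mark strand, but whether the counting used it is not given in the sources here.

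Ccnd3 encodes cyclin D3, which drives entry into the cell cycle. Ccnd3-205 held 32.7, 65.7 and 62.2% in controls and 70.5, 88.2 and 89.9% in knockouts. Ccnd3-201, which starts 88342 bases upstream and encodes the same 292 residues, held 15.6, 1.81 and 7.64% in controls and was listed at 0 in all knockouts. Without control replicate 1, whose share of Ccnd3-205 was the lowest, the difference was 18.9 points. Slc35c1 carries GDP-fucose into the Golgi. Slc35c1-201 held 34.6, 21.4 and 19.4% in controls and 55.3, 62.4 and 45.3% in knockouts, and Slc35c1-202 held the rest, so the order of the groups was the reverse there. In Prpsap2 the share of Prpsap2-201 was 57.5, 51.7 and 63.5% in controls and 94.1, 92.7 and 67.1% in knockouts, where knockout replicate 3 lay 3.61 points from the nearest control.

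Pard6a, a protein of the cell polarity complex, had Pard6a-205 at 28.2, 0 and 9.61% in controls and 38.7, 37.2 and 47.2% in knockouts. Pard6a-201, from the same start region, held 0, 23.5 and 8%, then 16.4, 0 and 0%. Summed over the 3 transcripts of that region the share was 40.6, 23.5 and 17.6%, then 55.1, 37.2 and 47.2%, and the groups overlapped. Without control replicate 2 the Pard6a-205 difference was 22.2 points. The intramembrane protease Rhbdl2 had Rhbdl2-202 at 41.3, 35.6 and 0% in controls and 53.9, 57.5 and 47.2% in knockouts. Without control replicate 3 its difference was 14.4 points. Apoa2-204 held 0, 0 and 5.33% in controls and 22.3, 28.8 and 37.0% in knockouts, on 66 to 153 reads of the gene. Apoa2-201 starts 28 bases downstream with the same coding sequence. It held 100, 100 and 40.2%, then 39.5, 71.2 and 27.2%, and its groups overlapped. Apoa2-202 held 0, 0 and 54.4%, then 38.3, 0 and 35.9%. Without knockout replicate 3 the Apoa2-204 difference was 23.8 points. Fbxl15, a substrate receptor of a ubiquitin ligase, had Fbxl15-202 listed at 0 in all controls and at 36.1, 30.8 and 12.6% in knockouts. Cdca3, which helps cells enter mitosis, had Cdca3-206 at 10.3, 0 and 0% in controls and 38.2, 16.9 and 32.5% in knockouts, on at most 30 reads of that transcript. By estimated reads the Cdca3 difference was 9.33 points, and the gene met the rule in 2 of the 6 leave-outs.

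Gm4724-203 was listed at 0 in all controls and held 39.0, 23.2 and 41.5% in knockouts. The 2 transcripts of 9530068E07Rik share their start and splice junctions and differ only by 5 bases at the 3′ end. Reads elsewhere in the gene cannot tell them apart, so their shares rest on how reads were assigned. By that assignment 9530068E07Rik-201 held 31.1, 46.5 and 41.7% in controls and 8.55, 28.0 and 2.85% in knockouts.

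How the gaining and losing transcripts differ was not used to choose the genes. In 20 of the 29 genes (69.0%) the pair differed in start, meaning over 100 bases apart with no shared first exon. The same held for 52.0% of the 7192 genes with a pair, and for 45.4% of the 2773 in which both transcripts held 10% or more on average. Over 500 bases apart it was 17 of 29. These starts are the annotated 5′ ends of transcripts. Among the 20 pairs, those of Xrcc4, Ctsh and Cdca3 hold an incomplete transcript. Those of Tbcd, Hspb6, Emid1, Alox5ap and Rnaseh2c hold a non-coding one. Whether transcription begins at each annotated end was not tested. The ends differed in 8 (27.6%), against 75.8% and 68.7%. Internal splice junctions differed in 16 (55.2%), against 71.3% and 74.5%. Of the 29, 15 pairs differ in their annotated coding sequence and 8 share it. A further 5 have a non-coding losing and a coding gaining transcript and 1 the reverse. In 3 of the 15 (Xrcc4, Ctsh and Cdca3) a transcript is incomplete in the annotation, so its protein is not known in full. The pair of 9530068E07Rik, which differs by only 5 bases of exon, is also among the 15. Over genes with a pair and over those with both transcripts at 10% or more, different coding sequences made 36.4 and 45.5% (51.7% here). The same coding sequence made 8.3 and 13.1% (27.6% here). A coding gaining and non-coding losing transcript made 24.1 and 19.9% (17.2% here), and the reverse 22.3 and 17.1% (3.45% here). No test was made of these shares. The gaining transcript was the shorter in 12 of 29 (41.4%), against 48.3% of genes with a pair, and in 11 of 29 without knockout replicate 2.

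**Figure D3:**
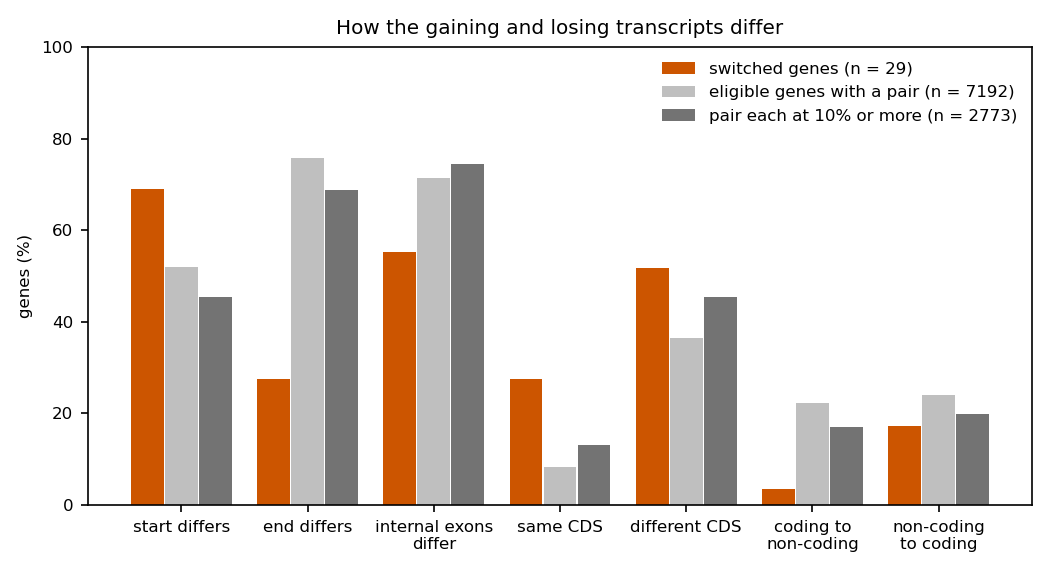
Percent of genes (y axis, from 0) whose gaining and losing transcript differ in the way named on the x axis, for the 29 switched genes, for 7192 genes with a pair and for 2773 with both transcripts at 10% or more. Annotated starts differed in 69.0% of switched genes and ends in 27.6%, against 52.0 and 75.8% of all genes with a pair.

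Summing shares over transcripts whose 5′ ends lie within 100 bases of each other gave 20 genes that met the same limits (0.26% of the genes considered), 17 of them among the 29. At gaining starts of pairs that differ in start, 14 could be matched to a RefSeq window, with a median CpG ratio of 0.78, and at losing starts 12, with 0.60. In the 10 genes with both windows, the gaining start was the richer in 5 and the poorer in 5. Of the gaining windows 3 hold TATAAA, 5 hold CCAAT and 11 hold GGGCGG. Of the losing windows these numbers are 0, 3 and 8.

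At the level of single transcripts, the gaining transcript was higher in knockouts without overlap of CPM in 16 genes, and the losing one lower in 17, among the 57 of 58 pair transcripts that passed the filter on low counts. Over all 42104 transcripts fitted, 10.7% were higher and 11% lower without overlap. Since the shares that chose the genes come from the same values, nothing is read from the counts. Both held in 7 genes: Adgrg1, Cept1, Fam214b, Hdac7, Hspb6, Schip1 and Xrcc4. In 9 genes only the gaining transcript was apart, among them Ing1, Uhmk1 and Dsg2, and in 8 only the losing one, among them Tbcd, Kdm2b and Tns2. In Nnat and Prpsap2 both transcripts were lower.

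The whole gene was called by edgeR's quasi-likelihood test in 4 of the 29 (Benjamini-Hochberg adjusted p under 0.05). Apoa2, an apolipoprotein, was the 1 gene called higher, with 2.88 ± 0.122 CPM in controls and 6.29 ± 1.77 in knockouts, a log2 fold change of 1.12 (SE 0.28). With the replicate block 6 of the 29 were called. Apoa2 was called in 0 of the 6 fits that leave out 1 library. The 3 called lower were Nnat (log2 fold change -3.45, SE 0.36), Kdm2b (-0.88, SE 0.15) and Prpsap2 (-0.85, SE 0.13), a partner of phosphoribosyl pyrophosphate synthetase. Over all 16430 genes tested, 4.1% were called higher and 5.84% lower. The median log2 fold change was 0.00 over the switched genes and 0.01 over all genes. For Tbcd the log2 fold change of -0.44 became -1.23 when average transcript length was taken into account. Apart from Nnat, the 28 genes lay between -0.88 and 1.12.

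**Figure D4:**
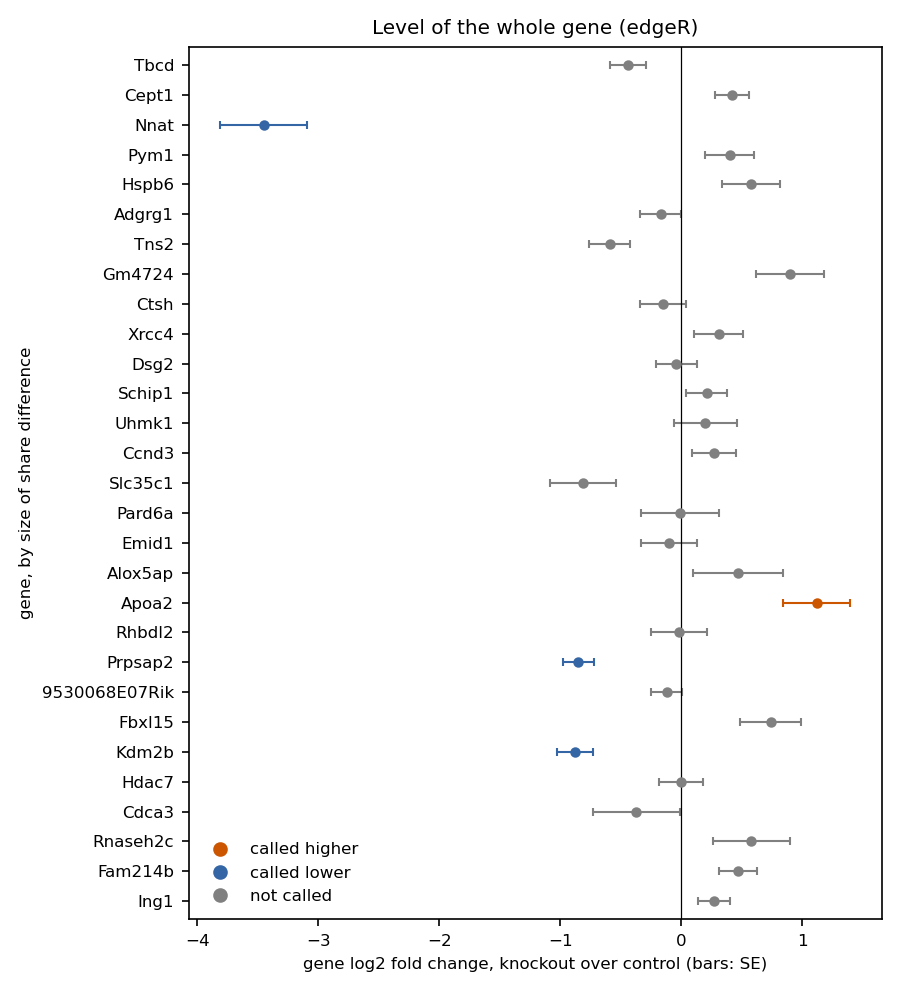
Log2 fold change of the whole gene, knockout over control, from edgeR (x axis, bars are SE), for the 29 genes in the order of their share difference (y axis). Nnat at -3.45, Prpsap2 at -0.85 and Kdm2b at -0.88 were called lower and Apoa2 at 1.12 higher, and the other genes were not called.

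Genes that make or read transcript choice were measured beside the switched genes. The list counts stand beside 4.1% called higher and 5.84% called lower over all 16430 genes tested. Of 59 splicing regulators 1 was called higher and 3 lower by edgeR, with a median log2 fold change of -0.07 against 0.01 over all genes. Srrm4, which drives neuronal microexons, fell from 7.99 ± 1.97 to 1.87 ± 0.214 CPM, with a log2 fold change of -2.09 (SE 0.27, adjusted p 0.0044), and was called in all 6 fits that leave out 1 library. Esrp2, an epithelial splicing regulator, rose from 7.72 ± 0.899 to 15.5 ± 1.34 CPM (log2 fold change 1.00, edgeR adjusted p 0.0141). Rbm47, an RNA-binding protein of epithelia, fell from 50.8 ± 5.25 to 26.4 ± 5.81 CPM (log2 fold change -0.94, edgeR adjusted p 0.0173). Esrp2 was called in 5 of the 6 leave-outs (not without control replicate 3) and Rbm47 in 3 (not without control replicates 1 or 2 or knockout replicate 1). Elavl4 was the other one called lower. With the replicate block 3 splicing regulators were called higher and 3 lower.

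Of 33 core spliceosome genes 1 was called, Snrpd2, a protein of the Sm ring, which rose from 42.1 ± 3.53 to 75.0 ± 17.9 CPM (log2 fold change 0.83, edgeR adjusted p 0.0279) and was called in 2 of the 6 leave-outs. Of 18 genes of nonsense-mediated decay 2 were called lower: Upf3b, from 82.2 ± 12.6 to 44.5 ± 7.97 CPM (log2 fold change -0.88, edgeR adjusted p 0.0208), and Nbas, with a log2 fold change of -0.82 (edgeR adjusted p 0.0389, or 0.0606 with transcript length taken into account). Upf3b was called in 3 of the 6 leave-outs (not without control replicates 1 or 3 or knockout replicate 3) and Nbas in 1 (without control replicate 1), with an edgeR adjusted p of 0.0966 without knockout replicate 2. Upf2 passed as well with the replicate block (edgeR adjusted p 0.0472, and 0.167 without). Of 23 genes of cleavage and polyadenylation and 27 of TFIID and H3K4me3 readers, edgeR called 0, with 1 and 6 at an unadjusted p under 0.05, and DESeq2 and limma-voom also called 0. With the replicate block 1 gene of these lists passed, Taf13 of TFIID (log2 fold change 0.56, edgeR adjusted p 0.0363). The lowest adjusted p in these lists were 0.179 for Cpsf1 and 0.0785 for Ing2. Of the islet lists, 11 of 27 islet transcription factors and 11 of 32 genes of stimulus-secretion coupling were lower. Of 35 granule and exocytosis genes 2 were higher and 6 lower. Over all genes tested, 4.1% were higher and 5.84% lower. With the replicate block 13 islet transcription factors and 15 genes of stimulus-secretion coupling were lower. No switched gene is in these 3 lists.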

How the data were processed

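Islet RNA of 6 mice was measured in strand-specific poly(A) libraries, per the labels' protocols, from 1000 ng of RNA with 9 amplification cycles. Trimmomatic, Salmon, DESeq2, GRCm38 and mm10 are named in the submitters' processing notes. No source used here gives the versions, the annotation or the strand setting. Per the file headers, the authors deposited expected counts and TPM per transcript with their lengths. Expected counts share a read among the transcripts it fits, so transcript values carry the error of that assignment, which these files do not give. The members and gene lists were chosen with earlier results of these data known.

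Transcripts were matched to GENCODE vM21 (139852 of 140948). Shares are transcript TPM over gene TPM. Expected counts, summed per gene or taken per transcript, were rounded and fitted with edgeR 4.0.16 (filterByExpr with minimum count 10, TMM, quasi-likelihood test, group as the only term, Benjamini-Hochberg, threshold 0.05, two-sided); the SE comes from the fold change and its F statistic. Alternatives were RLE, DESeq2 1.42.0, limma-voom 3.58.1, no filter, the replicate block, a transcript length offset and leaving out each library. Same-numbered libraries correlated in their deviations from group means at 0.427, 0.135 and 0.196. The other pairs of a control and a knockout ran from -0.318 to 0.14, so whether the numbers pair the libraries is not settled. The main fit does not pair them, and the replicate block does. What a number marks is not in the labels. Where nothing says otherwise, p-values measure the spread between these mice.

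Tested on data drawn at known folds with the real dispersions, the gene-level fit recovered 93% of 4-fold changes, and 17 of its 138 calls were false. The transcript-level fit recovered 0% of 4-fold and 66.3% of 16-fold changes. A first version of this test asked for 4-fold recovery at transcript level and failed; that requirement was then dropped for transcripts. Transcript calls are therefore not used as results, and few or no such calls say little.

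Genes were named by rule. Taken were the 12 largest differences, the 10 largest with different starts and the 8 largest with different annotated coding sequences. So were the 6 largest between coding and non-coding, members of a gene list, and the 3 nearest to the limit on each side. Predicted and clone names were left out. Up to 3 genes of smallest p per RNA-processing list were also named. The 12 members outside the rule, and Elavl4, were named after their values were seen.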

Additional observations from a re-analysis of the deposited data

How the results depend on the processing

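The number of genes meeting the share rule followed its limits: 115 at 1 TPM, 3 at 20 TPM, 69 at a difference of 20 points and 4 at 40 points. Leaving out 1 library gave 43 to 56 genes, of which 21 to 26 were among the 29, and 12 of the 29 met the rule in every leave-out. Control replicate 2 cost the most members: without it 21 of the 29 remained. Shares of estimated reads gave 29 genes, 20 of them the same. Starts gave 31 to 36 genes in the leave-outs against 20. Of the 203 share differences under an alternative, 196 moved by less than the spread within groups and 7 by more, and 0 reversed. All 7 were shares of estimated reads. Leaving out 1 of 3 libraries cannot move a group mean by more than its SD, so the leave-outs had to stay below that spread. The Ctsh difference counted as below it, though it went from 34.2 to 10.6 points without knockout replicate 3.

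At gene level edgeR called 1634 genes; DESeq2 called 2633, the replicate block 2430, and the leave-outs 737 to 1330. The replicate block is the fit that pairs same-numbered libraries. At transcript level edgeR called 175 of 42104 and DESeq2 2516. The replicate block called 0, with 5095 at an unadjusted p under 0.05, and the leave-outs 0 to 0, with 4109 to 5409; limma-voom called 169. The block changed the calls of members from 4 to 6. Other alternatives gave 2 to 8 called members, 8 with DESeq2 and 2 without knockout replicate 3.

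Of the listed genes, DESeq2 called 7 splicing regulators (4 with edgeR) and 2 of the core spliceosome (1 with edgeR). The replicate block called 1 of TFIID and H3K4me3 readers. The length offset called 1 gene of nonsense-mediated decay. In the leave-outs the lists held 2 to 5 splicing regulators, 0 to 1 of the core spliceosome, 0 to 1 of nonsense-mediated decay, 4 to 8 islet transcription factors, 7 to 13 genes of stimulus-secretion coupling and 3 to 10 of granules and exocytosis.

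Fold changes of uncalled genes near 0 changed sign as follows. With the length offset Xrcc4 had -0.17, Dsg2 0.40, Alox5ap -0.00 and Hdac7 0.07. Pard6a had 0.01 with limma-voom and 0.03 with the replicate block. Over the leave-outs Dsg2 ran from -0.13 to 0.11, Pard6a from -0.22 to 0.38, Emid1 from -0.26 to 0.09, Rhbdl2 from -0.32 to 0.13 and Hdac7 from -0.09 to 0.14. The cause of these changes was not tested.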
